A study of Drosophila melanogaster with 12 samples.

Results

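The odorant-binding protein genes of Drosophila melanogaster were followed in RNA from fly brains. They were taken as every gene symbol made of Obp and a number, plus Os-C, which gave 52 of the 17562 gene symbols in the deposited table of counts. The study asked how TDP-43, whose human form collects in clumps in dying motor neurons, disturbs sleep, and how lowering Atx2, the fly ataxin-2 gene, changes that. Brains of male flies were sequenced in 4 groups of 3 libraries, and the labels call the libraries of a group biological replicates without saying how many brains went into each. Every group carried DaGS, the GeneSwitch driver under daughterless control, which acts in most tissues of the fly and only when the drug RU486 is eaten. Control flies carried DaGS with a hairpin against mCherry (BL35785), a gene that flies lack, or with a hairpin against Atx2 (BL44012). TDP-43 flies carried the same driver with the TDP(52s) transgene and either the mCherry or the Atx2 hairpin. Each hairpin came from 1 stock and TDP-43 from 1 transgene. Their effects therefore cannot be told apart from differences in genetic background. Crosses were kept at 25 °C, males were taken 1 to 2 days after they eclosed, and brains were taken from all groups after 6 days on RU486, so no group was without the driver, the drug or a hairpin.

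Odorant-binding proteins are small secreted proteins held together by disulphide bridges. Support cells of the smell and taste hairs release them into the lymph around the dendrites of sensory neurons, where they bind odorants, tastants or pheromones and carry them to or away from the receptors. Other members of the family are made far from these organs, by glia of the brain, by the fat body of the head and by the male reproductive tract.

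Levels are given as CPM, the counts of a gene divided by the library's scaled total in units of 1e6 counts, and group values as mean ± SD (n = 3). Changes are log2 folds ± SE, with the fold from edgeR's quasi-likelihood test over 10738 genes. The test reports no SE, so it was set to the size of the fold divided by the square root of the F statistic and is approximate. A gene is called when its Benjamini-Hochberg adjusted p was below 0.05. "Rose" and "fell" are used only of called genes. The labels do not say whether libraries came from separate crosses, so the p-values reflect library-to-library spread, which may be technical. In brain tissue as a whole, fewer cells of a type and less RNA per cell cannot be told apart. Libraries held 29184618 to 45104293 counts. Atx2 ran from 343 to 363 CPM in control and from 267 to 304 CPM in TDP-43 libraries with the mCherry hairpin, and from 144 to 165.5 CPM in all 6 libraries with its own hairpin. The gene w, a usual marker of transgenes, was at 9.71 to 15.1 CPM in the 6 control libraries and at 1985 to 2405 CPM in the 6 TDP-43 libraries. All 8 neuron markers and all 10 glia markers had counts in every library, with summed levels of 9177 to 10517 CPM and 4139 to 5455 CPM. The male transcript lncRNA:roX1 stood at 4210 to 5483 CPM in all 12 libraries. It and lncRNA:roX2 were nonetheless among 6 of 8 sex markers called with TDP-43 under Atx2 RNAi, 4 higher and 2 lower. These were 75% of the list, beside 22.5% of all genes, and the rest were Yp1, Yp2, Yp3 and fit. In TDP-43 flies lncRNA:roX2 fell with the Atx2 hairpin. With TDP-43 under mCherry RNAi 4 of the 8 rose and 0 fell, or 50% beside 37.6%.

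Much of the family had few or no counts in these brains. Of the 52 genes, 8 had no count in any library (Obp46a, Obp50b, Obp50c, Obp50d, Obp51a, Obp56i, Obp57d and Obp93a). Another 7 never had more than 3 counts (Obp22a, Obp47a, Obp47b, Obp50a, Obp56b, Obp58b and Obp58d). A count of 0 allows a level of up to 0.0645 to 0.104 CPM, which is 3 counts in the deepest and the shallowest library, by counting error alone. Obp50b and Obp50c share all of their 1648 exonic bases on the same strand, and Obp57d shares all of its 1488 with Cpr57A. If the counting dropped reads shared between genes, the counts of 0 for these genes would not show that they were silent. The remaining 37 passed 3 counts in at least 1 library, and 27 of them had enough counts to be tested. The other 10 stayed below the filter (Obp19c, Obp50e, Obp56c, Obp56f, Obp57e, Obp58c, Obp59a, Obp73a, Obp84a and Obp99d). Among these, Obp59a, which is needed for sensing humidity in the antenna, reached 2.82 CPM in control replicate 1 with mCherry RNAi and had no count in any TDP-43 library with that hairpin.

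The genes lie in groups along the chromosomes, with 29 on 2R, 13 on 3R, 6 on X and 2 each on 2L and 3L. Placed by the dm6 annotation, 31 sat in 9 clusters whose neighbours were no more than 10 kb apart, and 21 stood alone. The largest cluster, Obp56a to Obp56f, covers 16.3 kb of 2R (19697723 to 19713976). In 15 genes an exon shares bases with an exon of another gene. For Obp50b, Obp50c, Obp57d and Obp73a the other gene lies on the same strand, so counting by strand would not tell them apart. For the rest, reads over shared bases could have gone to either gene if counting ignored strand, a setting no source used here gives. Among the genes with values below this concerns 205 of 1076 exonic bases of Obp44a (with Pabp2), 449 of 532 of Obp56e (with asRNA:CR44509), 92 of 901 of Obp83ef (with Obp83cd), 27 of 604 of Os-C (with Sfp84E), 53 of 546 of Obp69a (with CG32104), 92 of 899 of Obp83cd (with Obp83ef) and 23 of 669 of Obp99c (with Gycalpha99B).

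Obp44a, a member expressed in glia of the fly brain, made up most of the family's RNA in every library. Per kilobase of exon it reached 1670 CPM on average over all libraries, which was 82.1% of the family's summed level per kilobase. That share was lowest, at 59.7%, in TDP-43 replicate 3 with mCherry RNAi and highest, at 92.2%, in control replicate 3 with Atx2 RNAi. Next by level per kilobase came Obp99c with 6.90% of the family total, Obp19d with 2.27%, Obp56d with 2.17%, Obp99a with 1.29%, Obp99b with 0.935% and Obp18a with 0.929%. The family as a whole held 0.151% to 0.290% of the counts of a library.

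**Figure D1:**
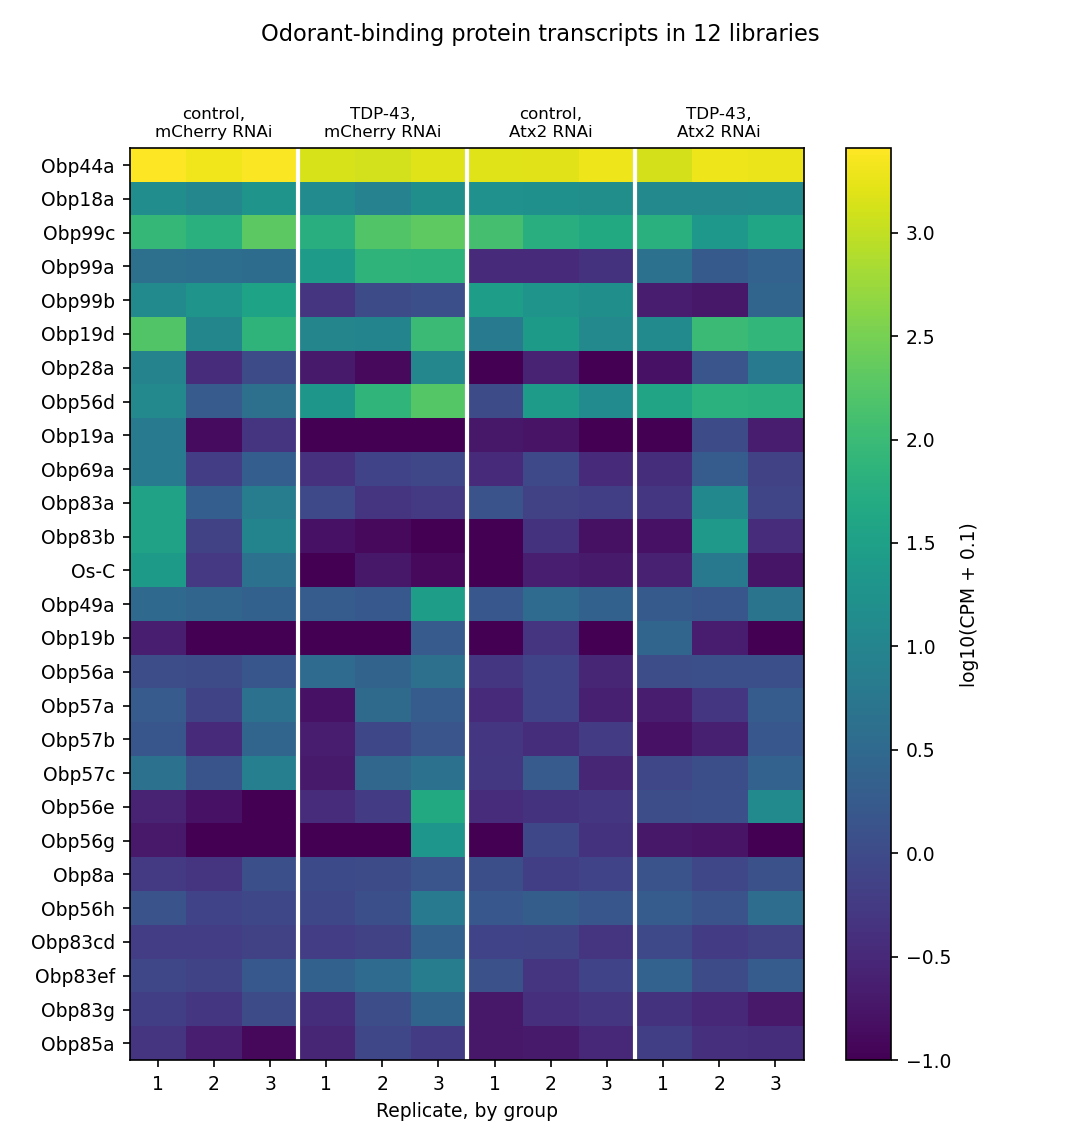
Levels of the 27 tested odorant-binding protein genes (rows) in the 12 libraries (columns, grouped by genotype and hairpin), coloured by log10 of CPM plus 0.1. Obp44a was high throughout, Obp99a and Obp99b changed by group, and Obp83a, Obp83b and Os-C were high in 3 libraries from 2 groups.

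Before any comparison, some libraries stood apart from the others of their group. Obp83a and Obp83b, the antennal proteins OS-F and OS-E, and Os-C, another olfactory-organ protein, were highest in control replicates 1 and 3 with mCherry RNAi and in TDP-43 replicate 2 with Atx2 RNAi. Obp83b was at 34.7, 9.71 and 24.6 CPM in those 3 libraries and at no more than 0.603 CPM in the other 9. Os-C was at 25.5, 4.23 and 5.84 CPM there and at no more than 0.435 CPM elsewhere. The same 3 libraries ranked highest for Obp19a and for Obp69a, which is known from antennal sensilla, and so for 5 of the 10 genes listed as antennal. Of 7 antenna markers, they also ranked highest for lush (Obp76a), the pheromone-binding member of the family outside the naming rule, and for the antennal proteins a5 and a10, and not for antdh, Amt, Orco or Snmp1. lush stood at 5.80, 1.504 and 1.99 CPM in the 3 libraries and at 0.112 to 0.495 CPM in the other 9, and a5 had no count outside the 3. For antdh, an antennal dehydrogenase, control replicates 1 and 3 with mCherry RNAi were highest and TDP-43 replicate 3 with Atx2 RNAi came next. Summed over 7 antenna markers, levels were 5.86 to 45.02 CPM in control and 10.49 to 18.4 CPM in TDP-43 libraries with mCherry RNAi, and 4.54 to 8.14 CPM in control and 10.2 to 17.3 CPM in TDP-43 libraries with Atx2 RNAi. The pheromone co-receptor gene Snmp1 was highest, at 10.8 CPM, in TDP-43 replicate 3 with mCherry RNAi and rose with TDP-43 under that hairpin, from 0.703 to 3.08 CPM in control to 3.83 to 10.8 CPM in TDP-43 libraries. By the summed markers control replicate 3 with mCherry RNAi, at 13.7 CPM, was below TDP-43 replicate 3 of that hairpin, at 18.4 CPM. The 10 antennal family members likewise summed to 297, 102 and 212 CPM in the 3 libraries. In TDP-43 replicate 3 with mCherry RNAi they summed to 287 CPM, most of it from Obp56d and Obp19d. Snmp1 made up most of the 18.4 CPM there. Sums that rest on so few genes do not rank the libraries for antennal transcripts as a whole. The part of antennal RNA in the family's group differences was not tested.

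**Figure D2:**
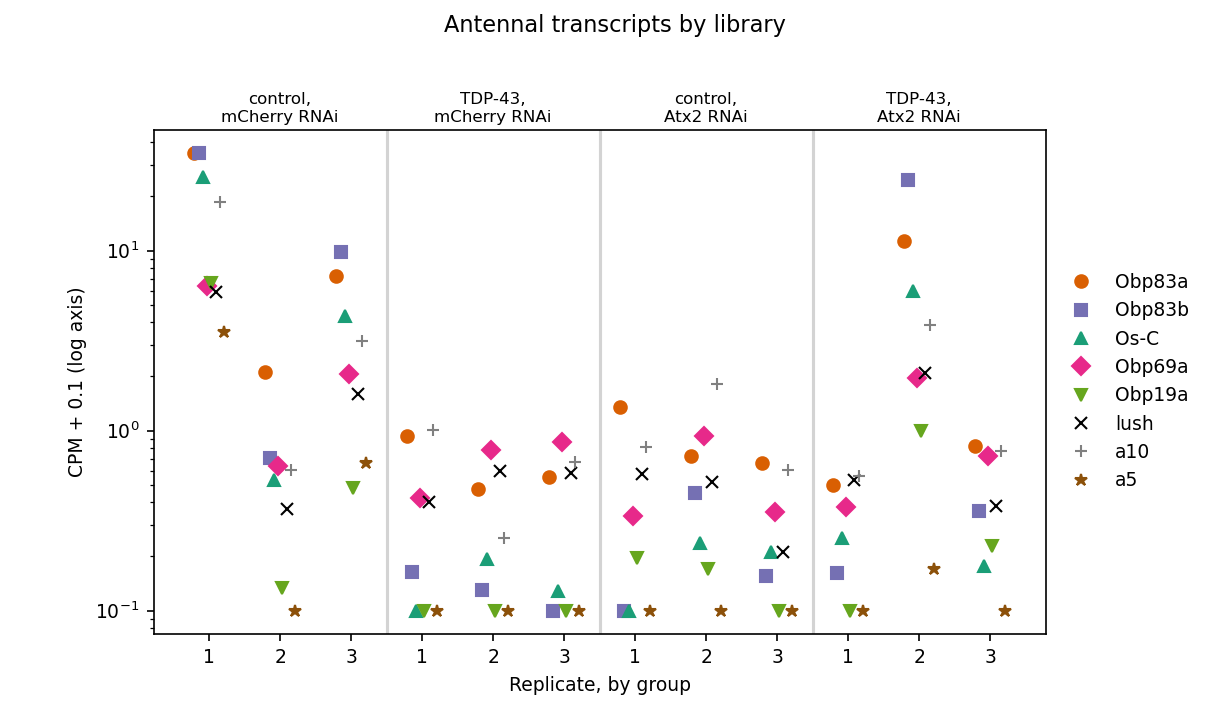
Level in each library (CPM plus 0.1, log axis) of 5 antennal odorant-binding protein genes and of lush, a10 and a5, by group and replicate. All 8 were highest in control replicates 1 and 3 with mCherry RNAi and TDP-43 replicate 2 with Atx2 RNAi. Only genes with that pattern are drawn, so their agreement follows from the choice. The other antennal members and antdh, Amt, Orco and Snmp1 did not share it and are left out.

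A further library, TDP-43 replicate 3 with mCherry RNAi, held the highest level of 16 of the 37 genes above 3 counts. Obp49a, a taste-hair protein that binds bitter compounds, was at 28.3 CPM there and at 1.42 to 4.95 CPM in the other 11 libraries. Obp56g, known as a seminal fluid protein, was at 20.5 CPM there and at 0.800 CPM or less elsewhere, and Obp56e and Obp28a were also highest there. Obp28a, an abundant protein of the antenna, was at 10.7 CPM in that library, 9.25 CPM in control replicate 1 with mCherry RNAi and 6.63 CPM in TDP-43 replicate 3 with Atx2 RNAi, and at no more than 1.33 CPM in the other 9. The 10 markers of the male reproductive tract summed to 0.139 to 1.09 CPM in every library, with 0.645 to 0.711 CPM in the TDP-43 group with mCherry RNAi. Counts of called genes are therefore given below also without control replicates 1 and 3 with mCherry RNAi and TDP-43 replicate 2 with Atx2 RNAi, called here the 3 libraries high in Obp83b, which leaves 1 control library with mCherry RNAi, and without replicate 3 of both TDP-43 groups. In the former, the lone library was assumed to vary like the other groups.

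TDP-43 flies were compared with control flies under the mCherry hairpin. Obp99a, Obp56a, Obp56d, Obp56e and Obp83ef rose, and Obp44a, Obp99b, Obp83a, Obp83b and Os-C fell. These were 10 of 27 tested genes, or 37.0%, beside 37.6% of all 10738 genes tested. The 5 higher stood beside 19.2% of all genes called higher, and the 5 lower beside 18.3% called lower. Libraries of the groups did not overlap for 11 of the 27, beside 46.4% of all genes. The median log2 fold change of the 27 was 0.31, against 0.03 over all genes, and the median size with the sign ignored was 1.60, against 0.24. Genes were not matched for level in these medians or those below. Many of the 27 were at a few CPM and varied widely within groups. Of the 27, 4 had a group at or under 3 counts per library, and setting these at their bound left both medians as they were. The count was 2 without the 3 libraries high in Obp83b, where 21.4% of all genes were called, and 4 without replicate 3 of both TDP-43 groups, where 27.2% were.

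Obp99a (3R, 29671657 to 29672334) had the smallest adjusted p of the family in this comparison. It was at 4.14, 3.75 and 3.52 CPM in the control libraries with mCherry RNAi and at 27.7, 73.6 and 70.0 CPM in the TDP-43 libraries with mCherry RNAi. Under the Atx2 hairpin it was at 0.238, 0.244 and 0.336 CPM in control and at 4.44, 1.66 and 2.32 CPM in TDP-43 libraries. Every TDP-43 library was above every control library under the same hairpin, and control flies with mCherry RNAi and TDP-43 flies with Atx2 RNAi overlapped. The rise under mCherry RNAi was 3.91 ± 0.45 on the log2 scale (edgeR adjusted p = 1.97e-04). It remained called with each of the 12 libraries left out in turn and without the 3 libraries high in Obp83b (adjusted p = 0.0209), but not without those 3 and replicate 3 of both TDP-43 groups together (3.74, adjusted p = 0.0566).

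Obp99b (3R, 29716254 to 29716896), also named tsx and known as a transcript of the male head fat body, moved the other way. It was at 12.8, 18.9 and 35.6 CPM in control and at 0.387, 0.928 and 1.08 CPM in TDP-43 libraries with mCherry RNAi. With Atx2 RNAi it was at 28.5, 18.7 and 15.9 CPM in control and at 0.123, 0.0949 and 2.66 CPM in TDP-43 libraries. No TDP-43 library reached the lowest control library under either hairpin. The fall with mCherry RNAi was -4.83 ± 1.10 on the log2 scale (edgeR adjusted p = 0.00917) and was still called without the 3 libraries high in Obp83b (adjusted p = 0.0412) and without replicate 3 of both TDP-43 groups (adjusted p = 0.00172). Obp99c, which lies between Obp99a and Obp99b, was at 85.3, 62.4 and 196 CPM in control and at 58.1, 163 and 206 CPM in TDP-43 libraries with mCherry RNAi, and was not called. Its libraries overlapped widely, as did those of the Atx2 groups, at 127, 57.6 and 47.9 CPM in control and 62.1, 21.9 and 40.1 CPM in TDP-43 flies.

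Markers of other tissues also differed between these groups. The summed level of 16 fat body markers was 1499 to 3089 CPM in control and 2846 to 10753 CPM in TDP-43 libraries with mCherry RNAi, which overlapped, and 1381 to 1618 CPM in control and 2466 to 5209 CPM in TDP-43 libraries with Atx2 RNAi. Of 15 markers tested under mCherry RNAi, 7 rose and 1 fell, or 53.3% beside 37.6% of all genes. Those that rose included Yp1, Yp2, Yp3 and fit. These 4, with Cyp4d21 and sxe2, were also among the 8 sex markers. In the sum, sex-biased expression and the amount of fat body therefore cannot be told apart. Between 0 and 2 of the 16 had no count in a library. The yolk protein gene Yp1, which females express in the fat body, was at 0.994 to 2.25 CPM in control and 844 to 3735 CPM in TDP-43 libraries with mCherry RNAi, and at 0.523 to 7.62 CPM in control and 470 to 1394 CPM in TDP-43 libraries with Atx2 RNAi. The female-biased fat body transcript fit was at 0.167 to 0.729 CPM in control and 23.3 to 93.5 CPM in TDP-43 libraries with mCherry RNAi. The larval serum protein gene Lsp1beta fell, from 65.8 to 156 CPM in control to 0.624 to 2.02 CPM in TDP-43 libraries with that hairpin. Muscle markers, 11 in all and none at 0, summed to 151, 150.3 and 246 CPM in control libraries with mCherry RNAi. In TDP-43 libraries with that hairpin they summed to 180.0, 481 and 482 CPM. In that comparison 5 rose and 1 fell, or 54.5% beside 37.6% of all genes. With Atx2 RNAi they summed to 94.5 to 142 CPM in control and 137 to 260 CPM in TDP-43 libraries. TDP-43 replicate 1 was the lowest of its mCherry group for fat body markers, muscle markers and Obp99a alike. In that group fat body markers were highest in replicate 3 and Obp99a in replicate 2. Among control libraries with mCherry RNAi, replicate 3 was the highest for fat body and muscle markers and the lowest for Obp99a. Gut enzymes, 24 genes of which 5 to 15 were at 0 in a library, summed to 1741 CPM in TDP-43 replicate 2 with mCherry RNAi, 809 CPM in TDP-43 replicate 2 with Atx2 RNAi and 17.8 to 79.6 CPM elsewhere. The part of these fat body, sex, muscle and gut marker levels in the results for Obp99a and Obp99b was not tested.

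Obp44a (2R, 8134170 to 8135315) fell by less than the others but from a level well above theirs. It was at 2558, 2021 and 2398 CPM in control and at 1359, 1265 and 1545 CPM in TDP-43 libraries with mCherry RNAi. With Atx2 RNAi it was at 1534, 1640 and 1993 CPM in control and at 1338, 2002 and 1913 CPM in TDP-43 libraries. The mCherry groups did not overlap, and the Atx2 groups did. The change was -0.74 ± 0.16 (edgeR adjusted p = 0.00621), called with each library left out but not without the 3 libraries high in Obp83b (-0.57, adjusted p = 0.119). Of 10 glia markers, 2 rose and 5 fell in the same comparison, or 70% beside 37.6% of all genes. Their summed levels were 4820 to 5455 CPM in control and 4435 to 4728 CPM in TDP-43 libraries. Their part in the Obp44a result was not tested.

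In the Obp56 cluster on 2R, Obp56a, Obp56d and Obp56e rose with TDP-43. Obp56a (19697723 to 19698508) was at 0.995, 0.904 and 1.43 CPM in control and at 3.38, 2.41 and 4.09 CPM in TDP-43 libraries with mCherry RNAi, which did not overlap. Its Atx2 groups held 0.404, 0.661 and 0.196 CPM in control and 0.987, 1.12 and 1.08 CPM in TDP-43 libraries, again without overlap. Its rise of 1.56 ± 0.36 under mCherry RNAi (edgeR adjusted p = 0.00518) was called with each library left out, but not without the 3 libraries high in Obp83b (1.84, adjusted p = 0.0672).

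Obp56d (19702924 to 19703915), listed here among the antennal members, varied much more within groups. It was at 11.8, 1.77 and 4.16 CPM in control and at 21.5, 75.0 and 175 CPM in TDP-43 libraries with mCherry RNAi. Under the Atx2 hairpin the levels were 0.975, 25.6 and 13.1 CPM in control and 37.3, 64.4 and 59.0 CPM in TDP-43 libraries. All TDP-43 libraries lay above the control libraries with the same hairpin. The rise with mCherry RNAi was 3.94 ± 1.22 (edgeR adjusted p = 0.0347), and the call was lost in 7 of the 12 fits that left a library out, which were those without control replicates 2 or 3 or TDP-43 replicates 2 or 3 with mCherry RNAi, control replicate 3 or TDP-43 replicates 2 or 3 with Atx2 RNAi. Leaving out TDP-43 replicate 3 with mCherry RNAi moved it to 3.02 (adjusted p = 0.108).

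Obp56e (19712345 to 19712932), known from male seminal fluid among other sites, rested on a single library. It was at 0.166, 0.0669 and 0 CPM in control and at 0.258, 0.495 and 47.3 CPM in TDP-43 libraries with mCherry RNAi. The Atx2 groups held 0.262, 0.348 and 0.392 CPM in control and at 0.987, 1.12 and 12.2 CPM in TDP-43 libraries. The groups did not overlap under either hairpin, and replicate 3 was far above the other TDP-43 libraries in both. The rise with mCherry RNAi was 7.73 ± 2.57 (edgeR adjusted p = 0.0442), and without TDP-43 replicate 3 it was 2.28 (adjusted p = 0.279). The call held in 3 of the 12 fits with a library left out, those without TDP-43 replicates 1 or 2 with mCherry RNAi or TDP-43 replicate 3 with Atx2 RNAi. The other members of that cluster, Obp56b, Obp56c and Obp56f, were under the filter. Obp56h, a gene that acts in male mating behaviour, was at 0.670 to 1.91 CPM in all control libraries and 0.817 to 6.33 CPM in the TDP-43 libraries, and was not called.

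Obp83ef (3R, 6109642 to 6111034), a long member of 245 residues, also rose. It was at 0.763, 0.703 and 1.504 CPM in control and at 2.22, 3.31 and 7.27 CPM in TDP-43 libraries with mCherry RNAi, which did not overlap. The levels under Atx2 RNAi were 1.14, 0.383 and 0.672 CPM in control and 2.31, 0.949 and 1.81 CPM in TDP-43 libraries, which did. The rise with mCherry RNAi was 2.09 ± 0.54 (edgeR adjusted p = 0.0109), called with each library left out, at 1.46 (adjusted p = 0.0473) without TDP-43 replicate 3 with mCherry RNAi. It was not called without replicate 3 of both TDP-43 groups (1.46, adjusted p = 0.0655) or without the 3 libraries high in Obp83b (2.57, adjusted p = 0.0672). Its cluster neighbours Obp83cd, at 0.364 to 2.22 CPM, and Obp83g, at 0.0949 to 2.56 CPM, were not called.

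The antennal genes Obp83a, Obp83b and Os-C fell in this comparison. Obp83a (3R, 5972155 to 5975245) was at 35.0, 2.01 and 7.09 CPM in control and at 0.839, 0.371 and 0.454 CPM in TDP-43 libraries with mCherry RNAi. Atx2 RNAi libraries held 1.26, 0.626 and 0.560 CPM in control and at 0.401, 11.2 and 0.722 CPM in TDP-43 libraries. Control and TDP-43 libraries were apart under mCherry RNAi and mixed under Atx2 RNAi. The fall was -4.69 ± 1.53 (edgeR adjusted p = 0.0408), moved to -3.02 (adjusted p = 0.123) without control replicate 1, and was called in 4 of the 12 fits with a library left out, those without control replicate 2 with mCherry RNAi or without any of the TDP-43 replicates with Atx2 RNAi.

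Obp83b (3R, 5976177 to 5976817) was at 34.7, 0.603 and 9.71 CPM in control and at 0.0645, 0.0309 and 0 CPM in TDP-43 libraries with mCherry RNAi. Under Atx2 RNAi its levels were 0, 0.348 and 0.0560 CPM in control and 0.0617, 24.6 and 0.258 CPM in TDP-43 libraries. Os-C (3R, 7978959 to 7979614) was at 25.5, 0.435 and 4.23 CPM in control and at 0, 0.0928 and 0.0284 CPM in TDP-43 libraries with mCherry RNAi. Its Atx2 groups held 0, 0.139 and 0.112 CPM in control and 0.154, 5.84 and 0.0774 CPM in TDP-43 libraries. The mCherry groups did not overlap for either gene, and the TDP-43 libraries were at or under 3 counts, so no fold is given. The edgeR adjusted p was 0.0475 for Obp83b and 0.0322 for Os-C, and the calls were lost in 8 and 4 of the 12 fits with a library left out.

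Obp19d, a member found in antennae and in taste organs, was among the most abundant and was not called in any comparison. It was at 164, 10.4 and 73.5 CPM in control and at 9.98, 9.68 and 99.8 CPM in TDP-43 libraries with mCherry RNAi. With Atx2 RNAi it was at 6.21, 25.4 and 11.7 CPM in control and 13.0, 102 and 83.8 CPM in TDP-43 libraries. Control and TDP-43 libraries overlapped under both hairpins. Obp18a, in contrast, was steady at 8.91 to 19.4 CPM in all 12 libraries. The remaining tested members not called here were at most 7.80 CPM, which Obp57c reached in control replicate 3 with mCherry RNAi, apart from Obp99c, Obp49a, Obp28a and Obp56g, whose levels are given above.

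**Figure D3:**
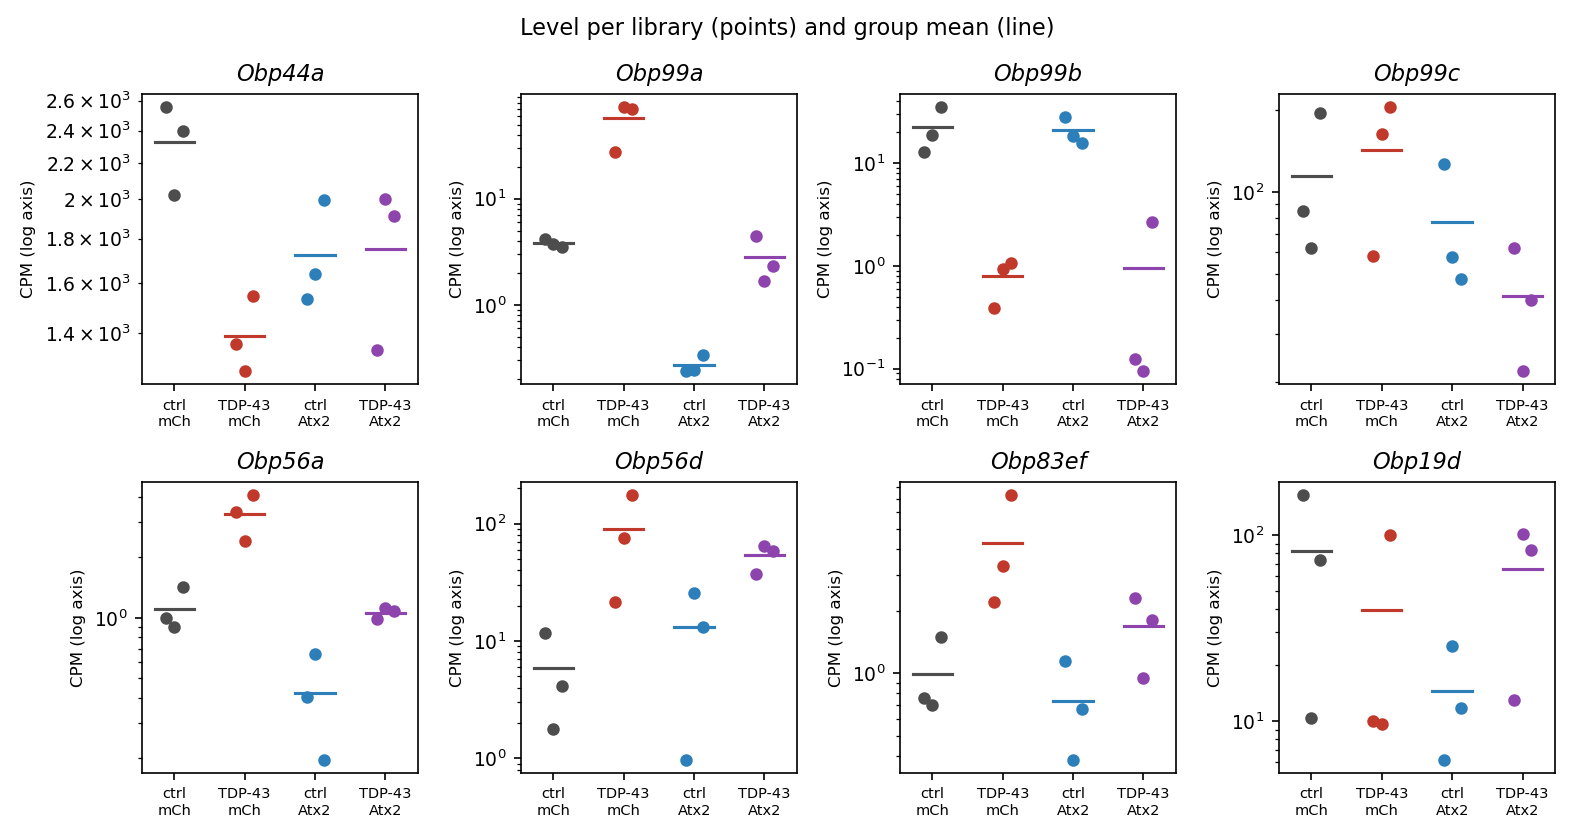
Level of 8 odorant-binding protein genes in each library (points, CPM on a log axis) with the group mean (line), for control and TDP-43 flies with the mCherry (mCh) or Atx2 hairpin. Obp99a was lower with the Atx2 hairpin in control and in TDP-43 flies, Obp99b was lower with TDP-43 under both hairpins, and Obp99c and Obp19d overlapped between control and TDP-43 flies.

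The Atx2 hairpin was compared with the mCherry hairpin in TDP-43 flies, since the series speaks of a rescue by lowering Atx2. Obp99a and Obp56a fell, and no member rose. The 2 calls were 7.41% of the 27 tested, beside 14.0% of all genes tested, of which 7.68% were higher and 6.36% lower. Groups did not overlap for the same 2 members only, beside 32.7% of all genes. The median log2 fold change of the members was -0.42, against -0.02 over all genes, and the median size was 0.82, against 0.16. Both comparisons that involve TDP-43 flies with mCherry RNAi use the same 3 libraries, so the rise of Obp99a and Obp56a in one and their fall in the other are not independent.

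Obp99a averaged 57.1 ± 25.5 CPM (SD, n = 3) in TDP-43 flies with mCherry RNAi and 2.81 ± 1.45 CPM (SD, n = 3) with Atx2 RNAi. That was a fall of -4.35 ± 0.46 on the log2 scale (edgeR adjusted p = 6.47e-04), called with each library left out. Obp56a averaged 3.29 ± 0.842 CPM (SD, n = 3) and 1.06 ± 0.0668 CPM (SD, n = 3), a change of -1.63 ± 0.36 (edgeR adjusted p = 0.0115). Without TDP-43 replicate 3 of either hairpin group, the Obp56a call was lost, at -1.45 (adjusted p = 0.0502) without the mCherry library and -1.63 (adjusted p = 0.0504) without the Atx2 library. Without the 3 libraries high in Obp83b, Obp99a remained called (adjusted p = 0.0202) and Obp56a, at -1.67, did not (adjusted p = 0.0764). Without replicate 3 of both TDP-43 groups, Obp99a again was the 1 member called.

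Several members differed in this comparison at an unadjusted p below 0.05 without being called, 8 of 27 counting the called ones, beside 28.5% of all genes. Among those with all groups above 3 counts, Obp83g had a log2 fold change of -2.53 ± 0.78 (edgeR adjusted p = 0.0508), Obp99c of -1.79 ± 0.68 (adjusted p = 0.127) and Obp83ef of -1.34 ± 0.53 (adjusted p = 0.1197). Obp44a went from 1390 ± 142 to 1751 ± 360 CPM (SD, n = 3) and Obp99b from 0.798 ± 0.364 to 0.959 ± 1.47 CPM (SD, n = 3). Neither was called, and for both the libraries of the groups overlapped. Of the 15 fat body markers tested, 0 rose and 3 fell with the Atx2 hairpin in TDP-43 flies, or 20% beside 14.0% of all genes. Their part in the fall of Obp99a was not tested.

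In control flies, Obp99a again fell with the Atx2 hairpin and was the only member called. It averaged 3.80 ± 0.316 CPM (SD, n = 3) with mCherry RNAi and 0.272 ± 0.0554 CPM (SD, n = 3) with Atx2 RNAi, a fall of -3.78 ± 0.55 (edgeR adjusted p = 0.00491). The call held with each library left out and without replicate 3 of both TDP-43 groups, and was lost without the 3 libraries high in Obp83b (-3.79, adjusted p = 0.118). That was 3.70% of the 27 members, beside 6.17% of all genes, of which 3.24% were higher and 2.93% lower. Groups did not overlap for 11 members, 9 of them lower, beside 25.7% of all genes. The median log2 fold change was -0.56, against 0.00 over all genes, and the median size was 1.42, against 0.13. Of the 15 fat body markers tested, 0 rose and 2 fell, or 13.3% beside 6.17% of all genes.

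Other members lower in control flies with the Atx2 hairpin missed the threshold. Obp56a went from 1.11 ± 0.280 to 0.420 ± 0.233 CPM (SD, n = 3), a log2 fold change of -1.42 ± 0.38 (edgeR adjusted p = 0.0517), and it passed with DESeq2, with no filter, with the stricter filter and without control replicate 2 with Atx2 RNAi. Obp44a went from 2326 ± 276 to 1723 ± 240 CPM (SD, n = 3), a change of -0.43 ± 0.16 (adjusted p = 0.177) with no overlap between groups. The antennal genes Obp83a, Obp83b and Os-C also did not overlap, with the mCherry libraries 1 and 3 holding their RNA as described above. DESeq2 called 6 members here, Obp56a, Obp69a, Obp83a, Obp83b, Obp99a and Os-C, and 9.18% of all genes.

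TDP-43 was compared with control flies under the Atx2 hairpin as well. Obp99a and Obp56a rose and Obp99b fell, which was 3 of 27 members or 11.1%, beside 22.5% of all genes, 12.1% higher and 10.4% lower. Groups did not overlap for 7 members, beside 43.8% of all genes. The members' median log2 fold change was 1.18, against -0.01 over all genes, and the median size was 1.35, against 0.18. Obp99a rose from 0.272 ± 0.0554 to 2.81 ± 1.45 CPM (SD, n = 3), by 3.34 ± 0.55 (edgeR adjusted p = 0.00245). This call held with each library left out and without replicate 3 of both TDP-43 groups. Obp99b fell from 21.0 ± 6.64 to 0.959 ± 1.47 CPM (SD, n = 3), a change of -4.44 ± 1.08 (edgeR adjusted p = 0.0195). The Obp99b call ended without control replicate 1 (-4.15, adjusted p = 0.0542), without TDP-43 replicate 1 (-3.94, adjusted p = 0.0516), without the 3 libraries high in Obp83b (-3.90, adjusted p = 0.0848) and in a fit of the compared groups alone (-4.42, adjusted p = 0.0752). Obp56a rose from 0.420 ± 0.233 to 1.06 ± 0.0668 CPM (SD, n = 3), by 1.35 ± 0.38 (edgeR adjusted p = 0.0254), a call lost without control replicates 1 or 3 or any of the TDP-43 replicates with Atx2 RNAi. Without TDP-43 replicate 3 the fall of Obp99b was -7.56. Of the 15 fat body markers tested under this hairpin, 6 rose and 2 fell, or 53.3% beside 22.5% of all genes.

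**Figure D4:**
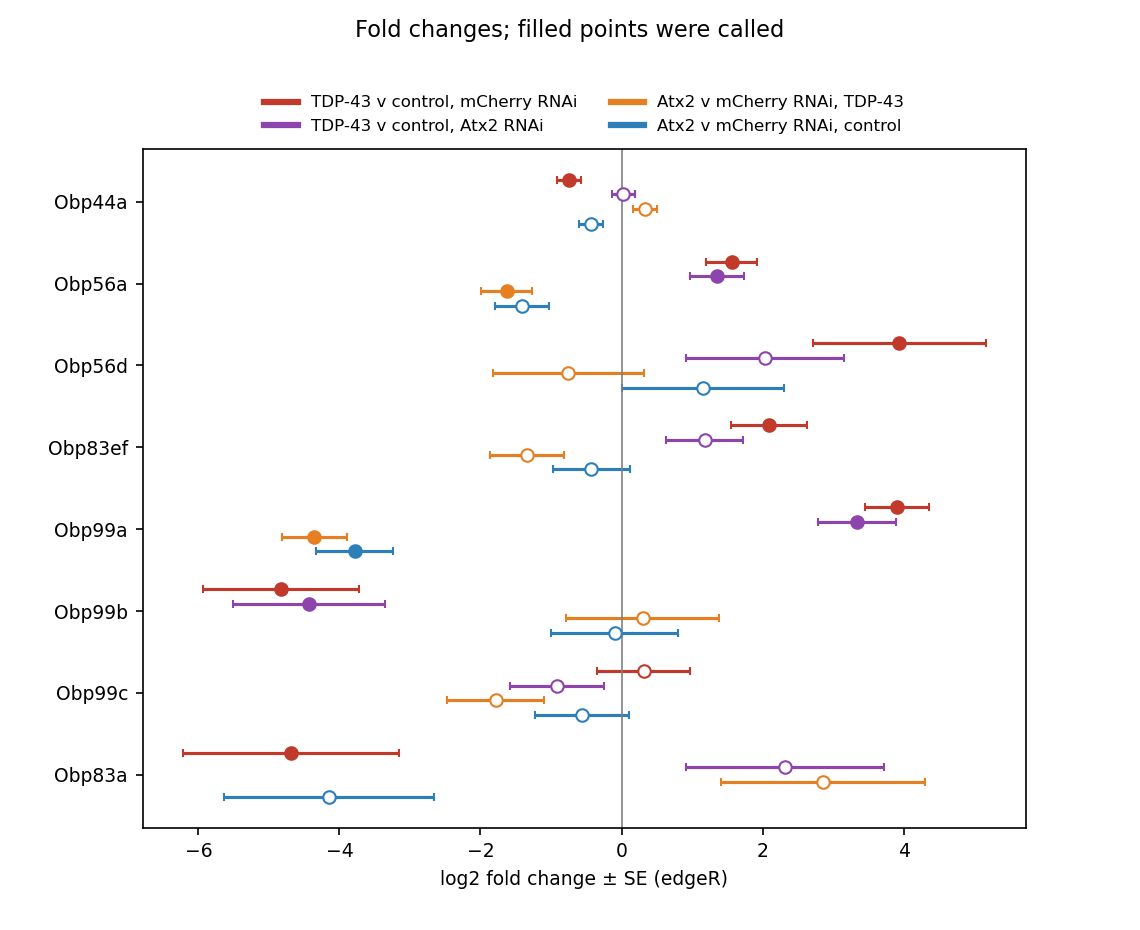
Log2 fold change ± SE of 8 odorant-binding protein genes in the 4 comparisons, with called genes as filled and others as open points. Obp99a lay to the right of 0 in both TDP-43 comparisons and to the left in both Atx2 comparisons, and Obp99b lay to the left in both TDP-43 comparisons.

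Whether the effect of TDP-43 differed between hairpins was tested by the interaction term. No member was called by edgeR, beside 0.428% of all genes, while 7 of the 27 had an unadjusted p below 0.05, beside 15.2% of all genes, and DESeq2 called 1, Obp44a, beside 4.96% of all genes. In edgeR the interaction of Obp44a was 0.77 ± 0.23 on the log2 scale (unadjusted p = 0.00855, edgeR adjusted p = 0.171). For Obp99a it was -0.57 ± 0.74 (adjusted p = 0.774), for Obp56a -0.21 ± 0.53 (adjusted p = 0.890) and for Obp99b 0.40 ± 1.41 (adjusted p = 0.926). The log2 effect of TDP-43 on Obp99a was thus not shown to differ between the hairpins, though its levels under the Atx2 hairpin were lower in control and TDP-43 flies alike. The standard errors of these interaction terms leave room for differences of more than 1 on the log2 scale in Obp99a and Obp99b.

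Position along the chromosome was set beside the changes. Obp99a, Obp99c, Obp99d and Obp99b lie within 45.2 kb of 3R (29671657 to 29716896), and Obp99a rose with TDP-43 while Obp99b fell. The same stretch holds 5 other tested genes (Bub3, CG7582, Cap-D2, Gycalpha99B and dmrt99B), of which 0 rose and 1, Gycalpha99B, fell in TDP-43 flies with mCherry RNAi. Their log2 fold changes ran from -0.65 to 0.50. In the Obp56a to Obp56f stretch and between Obp83a and Obp83b (4.7 kb) no other gene was tested.

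Other genes of smell and taste were read from lists beside the family. Of 190 receptor and signalling genes in the table, 42 were tested, and with TDP-43 under mCherry RNAi 12 rose and 2 fell. That was 33.3% of the 42, beside 37.6% of all genes. Snmp2, a membrane protein related to the pheromone co-receptor Snmp1, was at 6.59 to 7.80 CPM in control and 18.0 to 20.1 CPM in TDP-43 libraries, without overlap. The sugar receptor genes Gr61a and Gr5a rose too, Gr61a from 0.569 to 0.862 CPM in control to 2.34 to 2.66 CPM in TDP-43 libraries. The odorant receptor gene Or63a fell, from 21.5 to 28.4 CPM to 13.0 to 14.2 CPM. Orco, the co-receptor of the odorant receptors, was not called here and rose with TDP-43 under Atx2 RNAi, from 2.35 to 3.24 CPM in control to 5.55 to 6.37 CPM in TDP-43 libraries. With the Atx2 hairpin, 5 of the 42 rose and 2 fell in TDP-43 flies, and 2 rose and 1 fell in control flies. With TDP-43 under the Atx2 hairpin, 9 rose and 1 fell, and the interaction called 0. These were 16.7%, 7.14% and 23.8% of the 42 in turn, beside 14.0%, 6.17% and 22.5% of all genes.

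Of 10 genes of antennal support cells and odour clearance, 8 were tested, and Ugt35B1, a glycosyltransferase known from antennae, was the 1 member called with TDP-43 under mCherry RNAi, 12.5% of the list beside 37.6% of all genes. It stood at 361 to 363 CPM in control and 179 to 200 CPM in TDP-43 libraries with mCherry RNAi, and at 140 to 147 CPM in control and 54.0 to 58.0 CPM in TDP-43 libraries with Atx2 RNAi. The 4 groups did not overlap, and its order of libraries was not that of Obp83a, Obp83b and Os-C. It fell in all 4 comparisons and its interaction was called lower, the only call of the list there, and another member, Cyp6w1, fell in both comparisons of the hairpins, which made 25.0% of the list beside 14.0% of all genes in TDP-43 flies and 6.17% in control flies. lush itself was not called in any comparison (edgeR adjusted p = 0.0824 for TDP-43 under mCherry RNAi). Of 23 other small secreted chemosensory proteins, 6 were tested. With TDP-43 under mCherry RNAi the pheromone-related genes CheB42c and CheB98a rose and CheB53a fell (3 of 6, beside 37.6% of all genes), CheB42c from 1.07 to 1.96 CPM in control to 6.59 to 8.35 CPM in TDP-43 libraries. CheB42c also rose under Atx2 RNAi, CheB53a also fell with the Atx2 hairpin in control flies, and the other comparisons called none of the 6.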

How the data were processed

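The authors deposited 1 table of raw read counts per gene for 12 libraries. Per the submitters' processing notes, the build was dm6 and the tools included DESeq2, SAMtools, STAR 2.7.3a and Trim Galore. The counting tool and its strand setting are not given in the sources used here. The labels' protocols give a stranded polyA kit with paired reads of 150 bases and 40 M reads planned.

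Counts were tested with edgeR 4.0.16 in R 4.3.3 on genes kept by filterByExpr (10738 of 17562), with TMM factors (0.962 to 1.03), a mean per group in 1 model of all 12 libraries (8 residual degrees of freedom) and its quasi-likelihood test with robust settings. The Benjamini-Hochberg adjustment ran over all genes tested. CPM use the scaled totals. No fold is given where a group is at or under 3 counts per library, apart from a value for Obp83b in the last section, marked there. DESeq2 1.42.0, other scalings and filters, the replicate block and left-out libraries were alternatives. The steps were checked on simulated counts.

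Members called in any comparison or at 20 CPM or more in a group mean are given by library. Members and lists were chosen with earlier results of these data known. Coordinates are those of the BDGP6 annotation, which is dm6, and 17495 symbols matched a FlyBase identifier, 648 by an older symbol.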

Additional observations from a re-analysis of the deposited data

How the results depend on the processing

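With each library left out in turn, the number of members called ran from 5 to 10 for TDP-43 under mCherry RNAi, 1 to 3 for the Atx2 hairpin in TDP-43 flies, 1 to 2 in control flies, 1 to 4 for TDP-43 under Atx2 RNAi, and stayed at 0 for the interaction. In the same order, DESeq2 called 12, 6, 6, 4 and 1 members (40.3%, 18.4%, 9.18%, 25.4% and 4.96% of all genes), and it gave no adjusted p for Obp56e. Fitting the compared groups alone called 6 in the first comparison, losing Obp56d, Obp83a and Os-C with Obp56e under its filter, and no filter or a filter of 1 CPM in 3 libraries called 2 each in control flies. Leaving out the 3 libraries high in Obp83b gave 2, 1, 0, 1 and 0 calls (21.4%, 5.11%, 0.754%, 14.5% and 0.0526% of all genes), leaving out replicate 3 of both TDP-43 groups 4, 1, 1, 2 and 0 (27.2%, 4.25%, 4.38%, 16.5% and 0.12%), and leaving out all 5 gave 1, 0, 0, 2 and 0 (13.1%, 0.624%, 0.437%, 7.45% and 0.0803%), so calls were fewer over all genes too. These 3 sets were chosen after seeing the data. The last of them leaves only 1 control library with mCherry RNAi and 1 TDP-43 library with Atx2 RNAi, each assumed to vary like the other groups. In the last, Obp99b was the member called in the first comparison.

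Replicate numbers are shared between groups, but only 9 of 18 same-numbered pairs correlated above 0.1 (-0.48 to 0.68) and 5 of 12 libraries correlated best with their own number, so they were not taken as pairs. With the replicate block the counts were 7, 2, 1, 3 and 0. The block ended the calls of Obp56d (adjusted p = 0.0966), Obp56e (adjusted p = 0.0757) and Obp83a (adjusted p = 0.0670) in the first comparison, all edgeR, while 39.7% of all genes were called.

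The log2 fold change of Obp69a for TDP-43 under mCherry RNAi turned to 0.10 without the 3 libraries high in Obp83b, and its interaction to -0.061, and to -0.52 without all 5. Without those 5, Obp83b under Atx2 RNAi turned to -0.98 and the interaction of Obp99a to 0.27. The Obp83b value is an exception to the rule on low counts. It rests on 1 TDP-43 library with Atx2 RNAi, which was under 3 counts for this gene, so it does not show a reversal. The interaction of Obp99b was -0.22 with the replicate block, -2.42 without replicate 3 of both TDP-43 groups, -2.48 without the 5, and -2.71 to 0.97 with 1 library left out, and that of Obp56a -0.54 to 0.25. The cause was not tested. Counts at or near 0 limit Obp83b, Os-C and Obp56e.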
